A study of Mus musculus with 8 samples.

Results

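Of the 32285 features in the count matrices, 7 genes known to answer to glucocorticoid hormone were followed in T cells from the pancreas of diabetic NOD mice: Nr3c1, Fkbp5, Tsc22d3, Per1, Sgk1, Ddit4 and Txnip. The members were taken by symbol, with no threshold on a measured value. Their unique molecular identifiers (UMIs, each marking 1 captured RNA molecule) were summed over 29328 CD4-gated and 24663 CD8-gated T cells out of 80470 deposited barcodes. A cell counted as a T cell with at least 2 UMIs over the 6 genes Cd3d, Cd3e, Cd3g, Trac, Trbc1 and Trbc2. CD4-gated cells had at least 1 UMI of Cd4 and none of Cd8a or Cd8b1, and CD8-gated cells the reverse.

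Glucocorticoids are steroid hormones of the adrenal gland that enter cells and bind the glucocorticoid receptor, a transcription factor kept ready in the cytoplasm by heat shock protein chaperones. The bound receptor moves to the nucleus, where it raises some genes and lowers others, among them many cytokine genes. In T cells the hormone is known to curb activation and to trigger the death of thymocytes. Nr3c1 (ENSMUSG00000024431) encodes the receptor. Fkbp5 (ENSMUSG00000024222) encodes a co-chaperone that lowers the receptor's affinity for hormone and is itself induced by it. Tsc22d3 (ENSMUSG00000031431) encodes GILZ, a leucine zipper protein that restrains inflammatory transcription factors, and Per1 (ENSMUSG00000020893) encodes a repressor of the circadian clock. Sgk1 (ENSMUSG00000019970) encodes a kinase that acts on ion transport and FOXO factors. Ddit4 (ENSMUSG00000020108) encodes REDD1, an inhibitor of the growth kinase mTORC1 that hypoxia and stress also induce. Txnip (ENSMUSG00000038393) encodes a binding partner of thioredoxin that limits glucose uptake and answers to glucose itself. The labels name no glucocorticoid treatment, so the name of the set states what is known of these genes elsewhere and was not tested by the design.

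The 8 libraries came from spontaneously diabetic NOD mice, labelled female and 3 to 4 months old (3 to 5 months in the treatment protocol), a strain in which T cells destroy the insulin-producing beta cells. An onset library (250 mg/dl blood glucose) and an active diabetes library (above 600 mg/dl) were harvested on day 1 without treatment. Mice at 200 to 300 mg/dl were given either PPCA, the pair of the MDM2 inhibitor Nutlin-3 at 50 mg/kg and the WEE1 inhibitor MK-1775 at 25 mg/kg, or a vehicle of 30% ethanol, 5% Tween 20 and 65% PEG300, every day. The pancreas was taken the day after the last of 1, 2 or 3 treatments, which gave 1 vehicle and 1 PPCA library for each of days 2, 3 and 4. Cells were sorted as CD45+ CD3+ TcR-beta+, frozen, and taken into the library protocol together. The labels do not say how many mice went into a library, so the p-values below measure only the spread between libraries.

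Total depth ran from 36934580 to 67603740 UMIs per library. Against the label, 4 libraries carried Y-linked transcripts (Ddx3y, Eif2s3y, Kdm5d and Uty summed to between 189 and 276 CPM) and under 1 CPM of the X-inactivation RNA Xist: those of vehicle on day 2, vehicle on day 3, PPCA on day 3 and PPCA on day 4. The other 4, among them the vehicle library of day 4, had 419 to 632 CPM of Xist and at most 0.184 CPM of the Y-linked genes. CPM is the number of UMIs of a gene per 1000000 UMIs. Pairs of libraries shared 14 to 41 cell barcodes, at most 0.431% of the smaller library. The T cell genes summed to 6266 CPM or more in every gated sum. Myeloid markers summed to at most 10.0 CPM and natural killer markers to at most 3.81 CPM. B cell markers, led by Ighm, ranged from 112 to 258 CPM and pancreatic markers, led by Ctrb1, from 10.1 to 315 CPM.

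Upstream DNA is shown for 5 members because the letters known to bind the receptor, the clock factors and FOXO factors can be read in it directly. The RefSeq table of promoters (GRCm38.p6) covers 250 bases before to 50 bases after each start site. In it 14 windows of 6 members were searched, and Nr3c1 was left out. The 250 bases before the start are printed for 1 window of each member where a motif was found. Sgk1 had 6 windows, Tsc22d3 3 and Per1 2, so that these genes had more chances of a match, and the shares below are per window. Capitals mark the full glucocorticoid response element (AGAACA, any 3 bases, then its reverse complement TGTTCT), the single core AGAACA, the E-box CACGTG bound by clock factors, and the FOXO motif GTAAACA, each searched on both strands together with the cAMP response element TGACGTCA.
Tsc22d3, chrX:140600523-140600772 (-): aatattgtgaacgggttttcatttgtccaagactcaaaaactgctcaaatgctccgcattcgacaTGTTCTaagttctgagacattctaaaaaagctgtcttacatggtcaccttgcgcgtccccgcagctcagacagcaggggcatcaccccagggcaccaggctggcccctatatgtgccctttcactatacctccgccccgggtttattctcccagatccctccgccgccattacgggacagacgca
Per1, chr11:69098699-69098948 (+): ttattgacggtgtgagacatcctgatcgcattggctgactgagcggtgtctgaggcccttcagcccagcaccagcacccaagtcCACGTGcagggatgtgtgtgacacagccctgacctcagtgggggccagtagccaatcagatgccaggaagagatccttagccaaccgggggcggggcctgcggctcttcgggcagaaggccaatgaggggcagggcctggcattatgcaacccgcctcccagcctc
Sgk1, chr10:21993640-21993889 (+): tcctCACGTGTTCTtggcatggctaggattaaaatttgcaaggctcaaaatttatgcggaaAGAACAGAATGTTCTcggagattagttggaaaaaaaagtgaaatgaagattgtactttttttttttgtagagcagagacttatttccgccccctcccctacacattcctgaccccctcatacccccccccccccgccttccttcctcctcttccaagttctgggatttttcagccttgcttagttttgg
Fkbp5, chr17:28486150-28486399 (-): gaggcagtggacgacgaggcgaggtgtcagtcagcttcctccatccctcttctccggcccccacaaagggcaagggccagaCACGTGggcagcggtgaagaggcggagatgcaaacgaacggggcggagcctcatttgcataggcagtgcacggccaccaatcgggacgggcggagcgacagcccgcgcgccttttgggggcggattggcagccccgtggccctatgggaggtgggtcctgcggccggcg
Txnip, chr3:96557707-96557956 (+): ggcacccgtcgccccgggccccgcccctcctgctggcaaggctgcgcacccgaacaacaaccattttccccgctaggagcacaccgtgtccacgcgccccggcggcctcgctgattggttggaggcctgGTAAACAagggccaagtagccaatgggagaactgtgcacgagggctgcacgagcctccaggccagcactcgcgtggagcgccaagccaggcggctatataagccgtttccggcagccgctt
Of the 6 Sgk1 windows 1 held a full response element, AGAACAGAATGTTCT, starting 189 bases before the start site, and its E-box at -246 overlapped a single core at -242. The full element was found in 3 of the 32851 promoter windows of the table (0.00913%). Another 2 Sgk1 windows held a single core alone, at -195 and -13. Of the 3 Tsc22d3 windows 1 had a single core, read as TGTTCT, at -185, a match present in 19% of all windows. Per1 had an E-box at -166 in 1 of 2 windows and Fkbp5 at -169, where 7.15% of all windows had one, and Txnip a FOXO motif at -121, present in 3.65%. The cAMP response element, present in 1.79% of windows, was in none of the 14, and the Ddit4 window (chr10:59951721-59952020) held none of the motifs. These matches are descriptions of the sequence, and no binding was measured.

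The levels by library separated the day 4 harvest from the rest, and the 7 genes did not move as a block. Tsc22d3 and Per1 were at their highest in both day 4 libraries in both gates, and Ddit4 was at its lowest there. Fkbp5 was high in the PPCA library of day 4 and not in the vehicle library of that day. Nr3c1 and Sgk1 had the smallest ratios of the highest to the lowest library. All levels below are CPM scaled by the trimmed mean of M-values (TMM), which corrects for libraries of different composition.

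**Figure D1:**
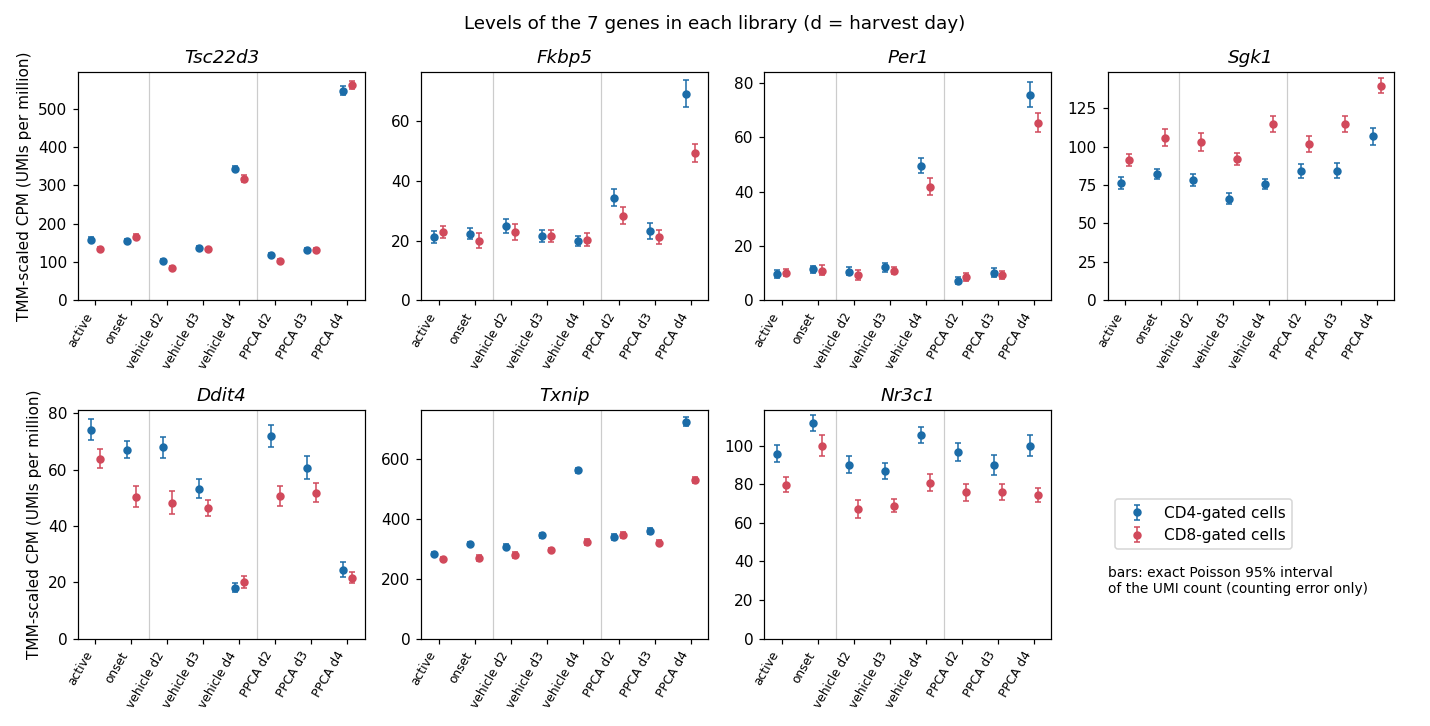
Levels of the 7 genes as TMM-scaled CPM (y axis, from 0) in each of the 8 libraries (x axis, d = harvest day) for CD4-gated (blue) and CD8-gated (red) cells; bars are exact Poisson 95% intervals of the UMI count and cover counting error only. Tsc22d3 and Per1 stand highest and Ddit4 lowest in both day 4 libraries, while Fkbp5 stands apart in the PPCA library of day 4.

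Nr3c1, the receptor itself, stood in CD4-gated cells at 90.2, 86.8 and 106 CPM under vehicle on days 2, 3 and 4 and at 96.5, 89.9 and 99.9 CPM under PPCA, with 95.7 CPM in the active and 112 CPM in the onset library. In CD8-gated cells it was at 67.1, 68.7 and 80.7 CPM under vehicle, 75.8, 75.9 and 74.3 CPM under PPCA, 79.7 CPM in active and 99.9 CPM in onset. Its onset library was thus the highest in both gates, and the treated arms overlapped.

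Fkbp5, the co-chaperone, was at 24.9, 21.4 and 19.7 CPM under vehicle and at 34.3, 23.2 and 69.1 CPM under PPCA on days 2, 3 and 4 in CD4-gated cells, with 21.1 CPM in active and 22.2 CPM in onset. CD8-gated cells had 22.8, 21.4 and 20.2 CPM under vehicle, 28.3, 21.1 and 49.3 CPM under PPCA, 22.8 CPM in active and 19.9 CPM in onset. The PPCA library of day 4 was thus 3.51 times its vehicle partner in CD4-gated and 2.44 times in CD8-gated cells, with 1 library on each side and no replicate of that day. That PPCA library carried Y-linked transcripts and its vehicle partner did not, so treatment and sex cannot be told apart in this pair. The ratios were 1.38 and 1.24 on day 2, where only the vehicle library carried them. On day 3, where both did, they were 1.08 and 0.985.

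Tsc22d3 was at 102, 138 and 344 CPM under vehicle on days 2, 3 and 4 in CD4-gated cells, at 118, 131 and 548 CPM under PPCA, at 159 CPM in active and at 156 CPM in onset. In CD8-gated cells its levels were 84.2, 133 and 318 CPM under vehicle, 103, 131 and 562 CPM under PPCA, 135 CPM in active and 166 CPM in onset. Both day 4 libraries lay above the other 6 without overlap. Per1 was at 10.6, 12.1 and 49.5 CPM under vehicle and 7.15, 10.1 and 75.6 CPM under PPCA in CD4-gated cells, with 9.60 CPM in active and 11.4 CPM in onset. In CD8-gated cells Per1 was at 9.26, 10.9 and 41.7 CPM under vehicle, 8.41, 9.25 and 65.4 CPM under PPCA, 10.2 CPM in active and 10.9 CPM in onset. The clock repressor was therefore low in all 6 libraries outside day 4, from 111 UMIs in the smallest sum.

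Sgk1 had levels of 78.2, 66.1 and 75.7 CPM under vehicle and 84.0, 84.3 and 107 CPM under PPCA in CD4-gated cells, with 76.0 CPM in active and 82.1 CPM in onset. In CD8-gated cells the kinase was at 103, 92.0 and 114 CPM under vehicle, 102, 115 and 139.6 CPM under PPCA, 91.3 CPM in active and 106 CPM in onset. The highest Sgk1 value in each gate was that of the PPCA library of day 4. Ddit4 ran the other way: in CD4-gated cells it was at 67.8, 53.2 and 18.1 CPM under vehicle on days 2, 3 and 4, at 71.8, 60.6 and 24.5 CPM under PPCA, at 74.1 CPM in active and at 67.1 CPM in onset. CD8-gated cells had 48.1, 46.4 and 20.1 CPM of Ddit4 under vehicle, 50.5, 51.8 and 21.5 CPM under PPCA, 63.8 CPM in active and 50.3 CPM in onset. Both day 4 libraries lay below the other 6 in each gate.

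Txnip was at 307, 346 and 562 CPM under vehicle and 339, 360.2 and 726 CPM under PPCA in CD4-gated cells, with 283 CPM in active and 315 CPM in onset. In CD8-gated cells it was at 279, 297 and 323 CPM under vehicle, 347, 319.96 and 529 CPM under PPCA, 266 CPM in active and 269.5 CPM in onset. The day 4 libraries lay above the other 6 in CD4-gated cells only, since the CD8-gated vehicle sum of day 4 was below that of PPCA on day 2. In CD4-gated cells 3 members (Tsc22d3, Per1 and Txnip) had both day 4 libraries above the other 6, as had 16.3% of 12822 genes, and Ddit4 had both below, as had 16.7%. In CD8-gated cells 2 members (Tsc22d3 and Per1) had both above, where 15.5% of genes did, and Ddit4 both below, where 17.1% did.

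The contrast of day 4 with days 2 and 3 was fitted by edgeR's quasi-likelihood test on the 6 treated libraries with treatment as a term, and was added after the data had been seen. Genes were called at a Benjamini-Hochberg adjusted p under 0.05. In CD4-gated cells 4 of the 7 members were called, against 13.8% of the 12048 genes tested (8.43% higher, 5.32% lower). Per1 rose by 2.66 on the log2 scale (SE 0.22, adjusted p = 0.000836), Tsc22d3 by 1.85 (SE 0.15, adjusted p = 0.00081) and Txnip by 0.93 (SE 0.11, adjusted p = 0.00289), and Ddit4 fell by 1.57 (SE 0.12, adjusted p = 0.000674). In CD8-gated cells 3 members were called, against 17.1% of 12168 genes (9.52% higher, 7.56% lower): Per1 rose by 2.50 (SE 0.18, adjusted p = 0.000423), Tsc22d3 by 1.95 (SE 0.16, adjusted p = 0.000667), and Ddit4 fell by 1.23 (SE 0.093, adjusted p = 0.00049). Txnip at 0.43 (SE 0.13, adjusted p = 0.0627) and Sgk1 at 0.31 (SE 0.10, adjusted p = 0.0808) did not pass there. Without the vehicle library of day 4 they were at 0.68 and 0.39, and without the PPCA library of day 4 Txnip was at 0.17. Each of these fits left 1 library on day 4, so that the other days alone supplied the spread. Txnip passed with DESeq2 (0.45), without the low-count filter (0.44) and with a factor for Y-linked transcripts (0.48). Sgk1 passed with that factor (0.35) and without the vehicle library of day 2 (0.39). The Txnip difference was smaller in CD8-gated than in CD4-gated cells by 0.50 (SE 0.085, adjusted p = 0.0372 for the interaction of gate and day 4, which called 0.198% of 12639 genes, 0.0712% higher and 0.127% lower). That call was lost without the vehicle library of day 2 (-0.50, adjusted p = 0.144), the PPCA library of day 3 (-0.50, adjusted p = 0.108) or the vehicle library of day 4 (-0.33, adjusted p = 0.281).

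The calls of Tsc22d3, Per1 and Ddit4 in both gates held when each library of days 2 and 3 was left out in turn. They also held with the presence of Y-linked transcripts as a further factor. Without either day 4 library, where 1 library stood for that day, their directions were the same. Fkbp5 had a day 4 value of 0.61 (SE 0.31, adjusted p = 0.231) in CD4-gated and 0.50 (SE 0.23, adjusted p = 0.179) in CD8-gated cells, and without the PPCA library of day 4 these became -0.23 and -0.13. Without the vehicle library of day 4 they were 1.31 and 1.03, but 1 PPCA library then stood for day 4 and the other days alone supplied the spread. Fkbp5 passed in both gates with the Y-linked factor (0.70 and 0.58) and without the low-count filter (0.60 and 0.51). Nr3c1 had 0.19 (SE 0.097) and 0.12 (SE 0.097). Day 4 was 1 harvest with 1 library per arm, so that the day and anything else particular to that harvest cannot be told apart.

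**Figure D2:**
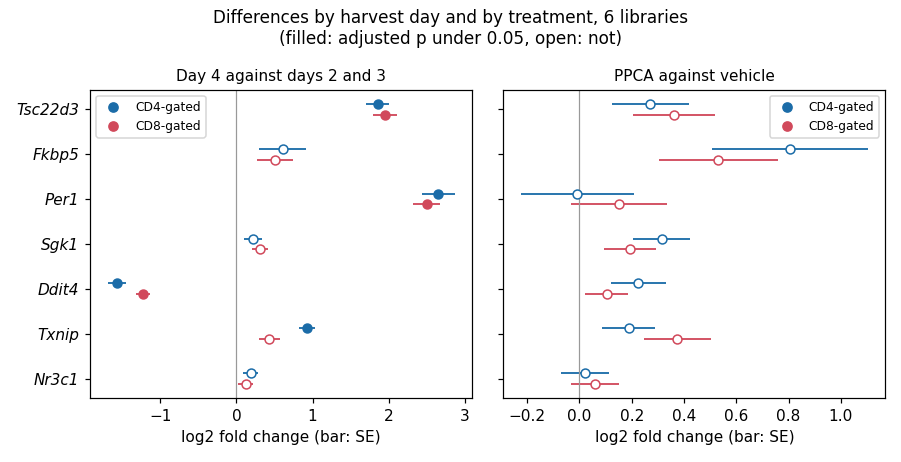
Log2 fold changes (x axes) of the 7 genes in the 6 treated libraries for day 4 against days 2 and 3 (left) and PPCA against vehicle (right), by edgeR, in CD4-gated (blue) and CD8-gated (red) cells; bars are standard errors and filled points passed an adjusted p of 0.05. Tsc22d3, Per1 and Ddit4 are filled in both gates on the left, Txnip in CD4-gated cells only, and no point is filled on the right.

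Other genes of the same pathway were counted from lists. Beside each count stand the shares of all genes tested on day 4. These were 8.43% higher and 5.32% lower in CD4-gated and 9.52% higher and 7.56% lower in CD8-gated cells. Of the other genes known to be raised by glucocorticoid, 7 of 11 tested rose on day 4 in CD4-gated cells and 8 of 12 in CD8-gated cells, and none fell; the list medians were 1.93 and 1.87, where the median of all genes tested was -0.012 and -0.016. Klf9, which encodes a zinc finger repressor, was at 30.2 and 37.0 CPM in the vehicle and PPCA libraries of day 4 in CD4-gated cells and at 3.48 to 5.63 CPM in the other 6, a rise of 2.88 (SE 0.15, adjusted p = 0.000297). Rgs2, a brake on G protein signalling, rose by 2.72, Irs2, an adaptor of insulin signalling, by 2.57 and Cxcr4, the receptor for CXCL12, by 2.29. In CD8-gated cells Rgs2 rose by 2.68, the MAP kinase phosphatase Dusp1 by 2.67, Klf9 by 2.34 and Irs2 by 2.27. The glucocorticoid-inducible Il7r did not pass in either gate (0.24 and 0.09). Its day 4 libraries lay at the ends of the range, the vehicle library lowest of 8 at 411 CPM in CD4-gated and 337 CPM in CD8-gated cells and the PPCA library highest at 973 and 768 CPM.

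Genes known to be lowered by glucocorticoid did not fall with them. Of that list 5 of 9 tested rose in CD4-gated and 4 of 7 in CD8-gated cells, and none fell, with medians of 1.80 and 0.60. The CD4-gated count includes Il17a, the interleukin-17A gene, which was at 0 on days 2 and 3 and at 1.06 and 0.97 CPM on day 4 and entered the test through the day 4 libraries. Without it 4 of 8 rose, with a median of 1.30. Ifng, the interferon-gamma gene, rose by 2.21 in CD4-gated and 2.41 in CD8-gated cells, and the chemokine genes Ccl3 by 2.51 and 1.29 and Ccl4 by 2.19 and 1.61. In CD4-gated cells Ifng was at 11.4 CPM in the vehicle library of day 4 and 65.0 CPM in the PPCA library, against 3.42 to 10.0 CPM in the other 6. On day 4 Ccl4 was at 6.53 CPM under vehicle and 62.3 CPM under PPCA, with 15.2 CPM in active and 19.9 CPM in onset. Ccl3 was at 2.46 and 17.5 CPM on day 4 and at 1.53 and 6.17 CPM in active and onset. In both gates the vehicle library of day 4 lay within the range of the other 6 for Ccl3 and Ccl4, and the PPCA library above it.

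Most partners of the receptor did not pass, and neither did most genes: of all genes tested 13.8% were called in CD4-gated and 17.1% in CD8-gated cells. Of 14 genes for chaperones, co-activators, co-repressors, the mineralocorticoid receptor and the hormone-activating enzyme, 2 rose and 1 fell in CD4-gated cells and 1 rose and 1 fell in CD8-gated cells. The chaperone gene Hsp90aa1 rose by 0.57 and 0.52. Hsd11b1, which encodes the enzyme that regenerates active glucocorticoid inside cells, fell by 0.81 and 1.01. Its CD8-gated levels were 72.7 and 46.5 CPM in the day 4 libraries against 109 to 129 CPM in the other 6.

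Of the clock genes other than Per1, 3 of 14 tested rose in CD4-gated cells and 2 of 13 in CD8-gated cells, and none fell. The repressor gene Bhlhe41 was called in CD4-gated cells, where it lay at 0 to 0.15 CPM on days 2 and 3 and at 0.98 and 1.34 CPM on day 4; it entered the test through the day 4 libraries, so no fold is given, and without it 2 of 13 rose. Its paralog Bhlhe40 rose by 2.65 and 2.53 and Nr1d2 by 0.76 and 0.58. Per2 was at 0.88 (adjusted p = 0.14) and 0.39 (adjusted p = 0.382), the activator Arntl at 0.03 and -0.17, and Dbp at -0.27 and -0.28, none of which passed.

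Stress and hypoxia are known inputs of Ddit4. Of the list of such genes 3 of 10 rose in each gate and none fell: Ppp1r15a, a phosphatase subunit of the stress response, by 2.94 and 3.22, Hif1a by 1.45 and 0.89 and Atf4 by 1.04 and 1.07. Of the thioredoxin and glucose-sensing list only Txnrd1 rose, by 0.44 in CD4-gated cells, and Arrdc4, another target of the glucose sensor that drives Txnip, did not pass (0.33 and 0.48). Of the paralogs of the members, Tsc22d2 rose by 0.54 in both gates and Tsc22d1 by 1.28 in CD8-gated cells.

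Early response transcripts, which mark recent triggering and also tissue dissociation, moved with day 4. Of that list of 14 genes 9 rose in CD4-gated and 11 in CD8-gated cells, with medians of 1.39 and 1.56, and none fell. Atf3 entered the test through the day 4 libraries, with at most 0.36 CPM in the other libraries of CD4-gated and 0.31 CPM in those of CD8-gated cells. Without it 8 and 10 of 13 rose, with medians of 1.24 and 1.43. Their summed level was 6736 and 10708 CPM in the vehicle and PPCA libraries of day 4 in CD4-gated cells, against 1660.2 to 3880 CPM in the other 6, and 5597 and 8281 CPM against 1216 to 3007 CPM in CD8-gated cells. None of the 14 genes was at 0 in all libraries. In cells without a UMI of Nr4a1, Nr4a3, Egr1 or Egr2 the day 4 levels of Tsc22d3 were as far apart from the rest: 370 and 580.5 CPM in CD4-gated cells against 111 to 175 CPM in the other 6 libraries, and 332 and 587 CPM against 89.7 to 168 CPM in CD8-gated cells. Ddit4 in such cells was at 21.8 and 25.8 CPM against 54.5 to 75.3 CPM in CD4-gated cells. These cells can still hold other transcripts of the list, whose part in the result was not tested.

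**Figure D3:**
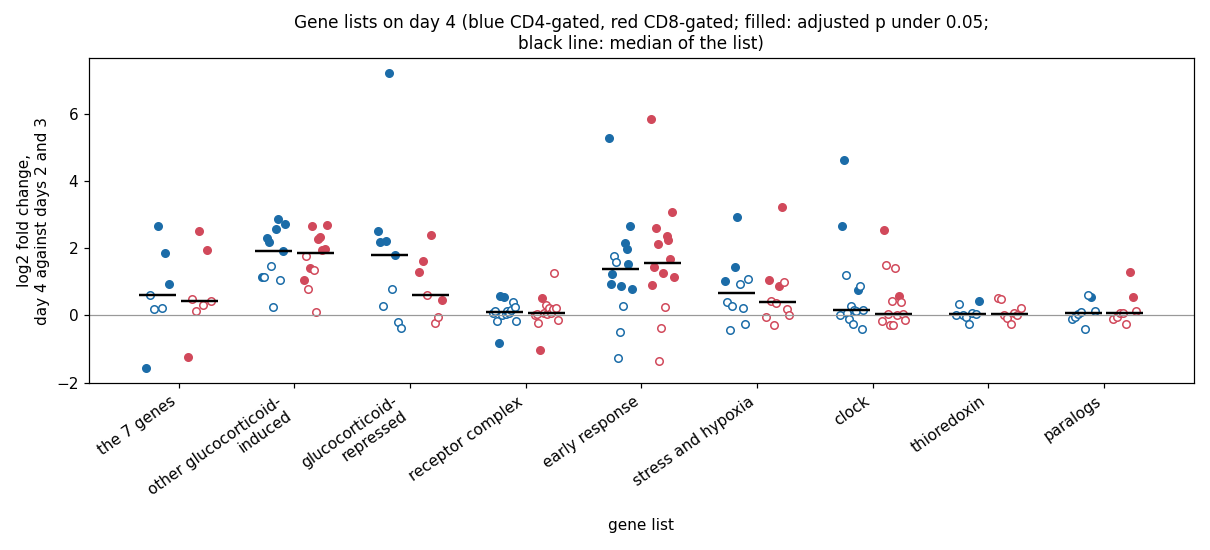
Log2 fold changes of day 4 against days 2 and 3 (y axis) for the tested genes of each list (x axis) in CD4-gated (blue) and CD8-gated (red) cells; filled points passed an adjusted p of 0.05 and black lines are list medians. The lists of other glucocorticoid-induced and early response genes have medians between 1.39 and 1.93, with early response at 1.24 and 1.43 without Atf3. The glucocorticoid-repressed list has 1.80 in CD4-gated (1.30 without Il17a) and 0.60 in CD8-gated cells, and the receptor complex list lies near 0.

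The treatment comparison asked which genes differed between PPCA and vehicle within harvest days. By edgeR 0 of 12048 genes passed in CD4-gated and 0 of 12168 in CD8-gated cells (0% of each), none of the 7 members among them. At an unadjusted p under 0.05 there were 841 and 987 genes, DESeq2 called 28 and 41, and limma-voom 0 and 2. The members' values were mostly positive, 6 of 7 in CD4-gated and 7 of 7 in CD8-gated cells. Their medians were 0.22 and 0.19, beside medians of -0.001 and 0.001 over all genes tested. In CD4-gated cells Fkbp5, Tsc22d3, Txnip, Ddit4 and Sgk1 were smaller without the day 4 pair, as given below.

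Fkbp5 had the largest member value, 0.81 (SE 0.30, adjusted p = 0.687) in CD4-gated and 0.53 (SE 0.23, adjusted p = 0.615) in CD8-gated cells. It was higher under PPCA on 3 of 3 days in CD4-gated and 2 of 3 days in CD8-gated cells, where unscaled CPM put it higher on 3 of 3. Without the day 4 pair the value was 0.28 and 0.13, and without a low-count filter Fkbp5 passed in CD4-gated cells, the only member that passed under any alternative. Sgk1 had 0.31 (SE 0.11, adjusted p = 0.687) in CD4-gated cells, where all 3 PPCA libraries lay above all 3 vehicle libraries, as did 3.9% of genes, and 0.19 (SE 0.10) in CD8-gated cells, where its day 2 order turned without scaling and PPCA was then higher on 3 of 3 days. No member had all 3 PPCA libraries below all 3 vehicle libraries, as 3.38% of genes had in CD4-gated and 3.24% in CD8-gated cells, and none had them all above in CD8-gated cells, where 3.66% did. Txnip had 0.19 (SE 0.10) and 0.37 (SE 0.13, adjusted p = 0.576) and was higher under PPCA on every day in both gates. Ddit4 was also higher on every day, with 0.22 (SE 0.11) and 0.10 (SE 0.083).

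Tsc22d3 had 0.27 (SE 0.15) and 0.36 (SE 0.16), and 0.058 and 0.12 without the day 4 pair. Without that pair Txnip was at 0.089 in CD4-gated and 0.20 in CD8-gated cells, and Ddit4 and Sgk1 were at 0.12 and 0.21 in CD4-gated cells. The day 3 order of Tsc22d3 depended on the scaling: PPCA lay below vehicle on day 3 after TMM scaling in both gates, and above it in unscaled CPM. Per1 had -0.01 (SE 0.22) and 0.15 (SE 0.18), lower under PPCA on days 2 and 3 and higher on day 4 in both gates. Nr3c1 had 0.02 (SE 0.092) and 0.061 (SE 0.092). With day 4 set against days 2 and 3, the treatment difference of Fkbp5 was larger on day 4 by 1.51 in CD4-gated and 1.14 in CD8-gated cells. Each arm had 1 library on day 4 in this interaction of day and treatment, so the spread came from days 2 and 3 alone. On day 4 only the PPCA library carried Y-linked transcripts, so treatment and sex cannot be told apart there. No gene passed this interaction by edgeR in either gate, 927 and 531 genes had an unadjusted p under 0.05, and DESeq2 called 35, Fkbp5 among them, and 15. The interaction of gate and treatment called 1 of 12639 genes (0.00791%), BC018473, named after its value was seen, and no member. Fkbp5 had an interaction of -0.31 (SE 0.10, edgeR unadjusted p = 0.00962, adjusted p = 1.00) there.

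No gene of the other pathway lists passed for PPCA in either gate. The other glucocorticoid-induced genes had medians of 0.16 and -0.016, with Mt1 at 1.31 and 1.08, and the clock genes had 0.30 and 0.062. The genes known to be lowered by the hormone had medians of 0.80, with 8 of 9 positive, and 0.33, with 5 of 7 positive. The CD4-gated list again held Il17a, at 0 CPM on days 2 and 3. Single values leaned on day 4. In CD4-gated cells Ifng was at 11.4 CPM under vehicle and 65.0 CPM under PPCA on day 4, against means of 7.31 and 6.17 CPM on days 2 and 3. Mt1 there was at 0.66 and 3.80 CPM on day 4, against 0.75 and 0.97 CPM.

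CD8-gated cells were next compared with CD4-gated cells of the same library. Here 5 of the 7 members passed, where edgeR called 45.4% of 12822 genes (23.1% higher, 22.3% lower), so that passing was common. Sgk1 ranged from 66.1 over a median of 80.2 to 107 CPM in CD4-gated and from 91.3 over 104 to 139.6 CPM in CD8-gated cells, and was higher in the CD8-gated cells of 8 of 8 libraries. The difference was 0.40 (SE 0.033, adjusted p = 7.49e-08). Nr3c1 ranged from 86.8 over 96.1 to 112 CPM in CD4-gated and from 67.1 over 75.8 to 99.9 CPM in CD8-gated cells, and was lower in the CD8-gated cells of 8 of 8 libraries, by -0.32 (SE 0.031, adjusted p = 3.76e-07). Both calls held under every alternative.

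Ddit4 was lower in CD8-gated cells in 7 of 8 libraries (-0.28, SE 0.053, adjusted p = 0.00042) and Txnip in 7 of 8 (-0.26, SE 0.066, adjusted p = 0.00428). The exception was the vehicle library of day 4 for Ddit4 and the PPCA library of day 2 for Txnip. Txnip did not pass in the 4 libraries without Y-linked transcripts alone, at -0.27, or with no library block, at -0.30. Ddit4 did not pass with no library block either, at -0.31. Fkbp5 passed narrowly (-0.15, SE 0.058, adjusted p = 0.0478) and lost the call without any one of 5 libraries, at -0.15 without onset, -0.16 without vehicle of day 2, -0.14 and -0.15 without PPCA of day 2 and day 3, and -0.08 without PPCA of day 4. It also lost it with DESeq2 (-0.14), without the top 5% of cells by UMIs (-0.14), with no library block (-0.19) and in the libraries without Y-linked transcripts alone (-0.07). Per1 (-0.12, adjusted p = 0.0583) and Tsc22d3 (-0.09, adjusted p = 0.068) did not pass. Per1 passed with DESeq2's size factors (-0.13), without the low-count filter (-0.13), and without active (-0.15), onset (-0.14) or PPCA of day 2 (-0.16). Tsc22d3 passed without the filter (-0.10) and without onset (-0.12) or PPCA of day 4 (-0.11).

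Of all 12822 genes tested, 22.3% were called lower and 23.1% higher in CD8-gated cells. Beside this, 6 of 13 other glucocorticoid-induced genes were lower and 1 higher, with Rgs2 at -0.99 and Dusp1 at -0.85. Among the partners of the receptor 4 of 14 were lower and 3 higher, near those shares, with the co-activator gene Ncoa3 at -0.65. The clock gene Per3 was higher by 1.25, and Arrdc4 by 1.58. The early response genes were lower in 10 of 14 cases, with a median of -0.33.

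**Figure D4:**
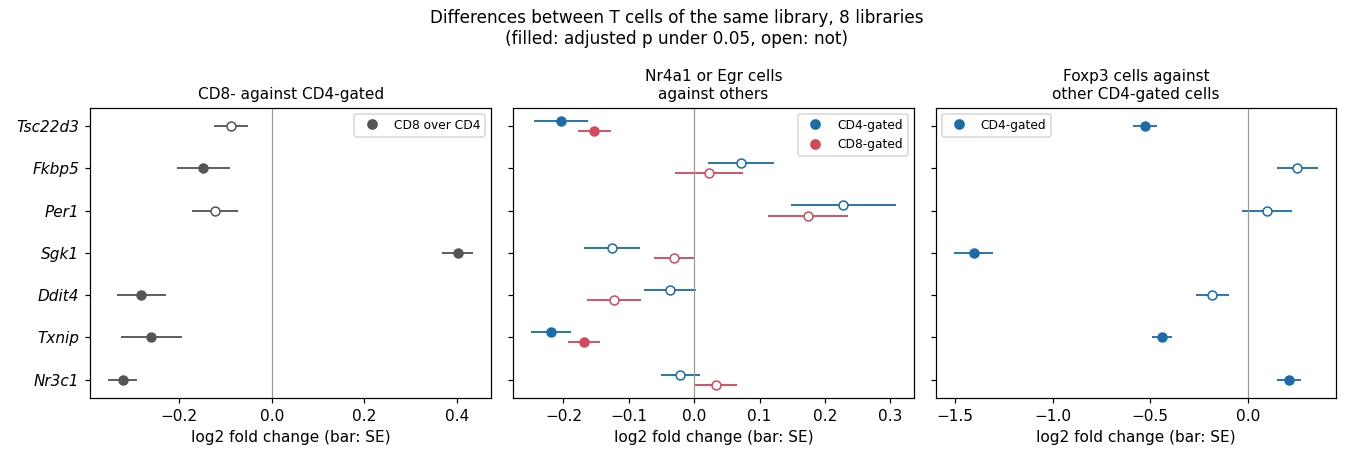
Log2 fold changes (x axes, each panel with its own range) of the 7 genes between T cells of the same library over 8 libraries, by edgeR: CD8- against CD4-gated cells, cells with against cells without a UMI of Nr4a1, Nr4a3, Egr1 or Egr2, and Foxp3 cells against other CD4-gated cells. Bars are standard errors and filled points passed an adjusted p of 0.05; Tsc22d3 and Txnip lie left of 0 and filled in every panel but the first, where Tsc22d3 is open.

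Foxp3 marks regulatory T cells, and 1230 CD4-gated cells had a UMI of it, 104 to 223 per library, or 2.21% to 6.66% of the gate at a median of 3900 to 6198 UMIs per cell. In CD8-gated cells, which should mostly lack it, the share was 0.932% to 2.31% at 4377 to 7287.5 UMIs, 25.0% to 44.4% of the CD4-gated share of the same library. With each cell thinned to 2000 UMIs, which left out 11 to 91 and 13 to 100 shallower cells per library, the shares were 1.25% to 4.01% and 0.335% to 1.21%. Cells with a UMI of Foxp3 are therefore a mixed class here, called Foxp3 cells, and not all need be regulatory T cells. Sgk1 ranged from 22.5 over a median of 34.9 to 61.3 CPM in them and from 76.5 over 91.1 to 121 CPM in the other CD4-gated cells. The kinase was lower in the Foxp3 cells of 8 of 8 libraries (-1.40, SE 0.10, adjusted p = 5.31e-18), on 21 to 42 UMIs per library, and this call held under every alternative. Tsc22d3 was lower as well in 8 of 8 libraries (-0.53, SE 0.061, adjusted p = 1.76e-10), as was Txnip (-0.44, SE 0.051, adjusted p = 1.87e-10). Nr3c1 was higher in 8 of 8 (0.21, SE 0.061, adjusted p = 0.00598), and did not pass in the 4 libraries without Y-linked transcripts alone (0.21). In all 4 of 7 members passed, where 30.8% of 12522 genes did (13.9% higher, 16.9% lower). With no library block Tsc22d3 (-0.45) and Txnip (-0.42) did not pass. Fkbp5 did not pass, but did as higher in Foxp3 cells with DESeq2's size factors (0.31) and without active (0.30), onset (0.29) or PPCA of day 3 (0.29), and Ddit4 passed as lower without the low-count filter (-0.22). Klf9 was higher in Foxp3 cells by 0.89 and Dusp1 by 0.76, and the interleukin-7 receptor gene Il7r was lower by -1.29. The mineralocorticoid receptor gene Nr3c2 was also higher in them, but lay near the floor, so no fold is given. In all CD4-gated cells it averaged 0.54 CPM under vehicle and 1.18 CPM under PPCA on days 2 and 3. On day 4 it was at 0.20 and 2.91 CPM.

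Cells with a UMI of Nr4a1, Nr4a3, Egr1 or Egr2, genes switched on by recent receptor triggering, differed less from the others, with 4.23% of 11706 genes called in CD4-gated (2.44% higher, 1.79% lower) and 3.36% of 11567 in CD8-gated cells (1.88% higher, 1.48% lower). Tsc22d3 was lower in them in 8 of 8 libraries of both gates, by -0.20 (SE 0.041, adjusted p = 0.00395) and -0.15 (SE 0.025, adjusted p = 0.000111). Txnip was lower in 8 of 8 as well, by -0.22 (SE 0.030, adjusted p = 7.28e-05) and -0.17 (SE 0.024, adjusted p = 1.18e-05). The other 5 members did not pass, though in CD4-gated cells Per1 did without the low-count filter (0.24) and without PPCA of day 4 (0.35), and Sgk1 without the filter (-0.13). In CD8-gated cells the Tsc22d3 call was lost with cells thinned to 2000 UMIs (-0.10) and in the 4 libraries without Y-linked transcripts (-0.15). With no library block neither Tsc22d3 (-0.15 and -0.13) nor Txnip (-0.20 and -0.17) passed in either gate. Nfkbia, an inhibitor of NF-kB and a known glucocorticoid target, was higher in the cells with such a UMI by 0.42 and 0.41. That class held 630 to 3576 CD4-gated and 401 to 3093 CD8-gated cells per library. Its median UMIs per cell were above those of the other cells in every library. Whether its cells had been triggered was not tested.

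Active and onset diabetes had 1 library each, so that no test was possible and unscaled CPM are set side by side. No member reached the 2-fold difference that 0.829% of 2773 genes in CD4-gated and 1.55% of 2769 genes in CD8-gated cells reached, among genes of at least 50 CPM in the higher library (0.433% and 0.289% higher, 0.397% and 1.26% lower in active). Fkbp5 and Per1 lay below 50 CPM, so that 5 of the 7 members could count there. Tsc22d3 in CD4-gated cells was at 161 and 155 CPM, a log2 ratio of 0.06 (Poisson 95% interval -0.0053 to 0.13). In CD8-gated cells Tsc22d3 was at 133 CPM in active and 167 CPM in onset, a log2 ratio of -0.33 (Poisson 95% interval -0.41 to -0.25, counting error only), and Nr3c1 at 78.5 and 100.1 CPM, a ratio of -0.35 (-0.46 to -0.25). In CD4-gated cells Nr3c1 was at 97.3 and 111 CPM (-0.18, interval -0.27 to -0.10). Txnip was lower in active in CD4-gated cells (-0.12, interval -0.17 to -0.069) and Sgk1 in CD8-gated cells (-0.24, interval -0.34 to -0.14, but -0.11 with cells thinned to 2000 UMIs), so that Nr3c1 was lower in both gates beyond counting error. Ddit4 was higher in active in both gates beyond it, at 75.4 and 66.5 CPM in CD4-gated cells (0.18, interval 0.081 to 0.28) and 62.8 and 50.4 CPM in CD8-gated cells (0.32, interval 0.18 to 0.45). The median over all compared genes was -0.056 and -0.11. Haemoglobin transcripts summed to 159 CPM in the CD4-gated cells of the active library and to at most 6.05 CPM in those of any other library, and their part in these ratios was not tested.

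The genes with the most similar profiles over the 8 libraries were found among 5035 genes averaging at least 20 CPM, by Pearson's correlation of log2(TMM-scaled CPM + 1), taking the lower of the values in the gates, as a description. For Tsc22d3 these were Tob1 (0.980), Rsrc2 (0.979) and Tob2 (0.971), and for Per1 Csrnp1 (0.991), Atg101 (0.991) and Tra2b (0.989). Ddit4 was most like Tnpo1 (0.969), Tubgcp4 (0.966) and Gabpb2 (0.962), and Txnip like Hcst (0.956), Ubb (0.928) and Zfp560 (0.927). For Nr3c1 the nearest were Hsp90aa1 (0.917), the chaperone that holds the receptor, Gspt1 (0.881) and Xpo1 (0.879). Fkbp5 was nearest to Ppp3cc (0.893), Il7r (0.891) and Mink1 (0.869), and Sgk1 to Hist1h2ap (0.889838), Socs1 (0.881) and Prelid2 (0.878). Tob1 and Tob2 encode antiproliferative proteins. The points share harvest day and library, so no test was made of these values.

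The authors' deposited table of cluster markers listed 3 of the 7 members. It gave Txnip for the cluster named CD4 Naive, with a log2 fold change of 0.30 against the other cells. The authors' deposited table further gave Fkbp5 for the cluster CD4 Th17 (0.28) and Nr3c1 for CD4 Th17 (0.31) and CD4 Treg (0.36).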

How the data were processed

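Single-cell 3' version 2 libraries were deposited by the authors as 8 matrices of UMI counts per gene and cell, not normalized, made with Cell Ranger 6.0.0 per the file headers (6.1.2 per the submitters' processing notes, which also name Seurat). The genome build is not given in the sources used here. A marker table deposited by the authors gives log2 fold changes with p-values per cluster, and was only quoted. Members, lists and tests were chosen with earlier results of these data known.

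Cells were kept with at least 500 genes, under 10% mitochondrial UMIs and at most 1 UMI over 6 B cell and myeloid genes. No doublet caller was run; cells with both CD4 and CD8 transcripts fall outside the gates, and leaving out the top 5% of cells by UMIs was an alternative. UMIs were summed per library and gate or class. edgeR 4.0.16 (R 4.3.3; filterByExpr, TMM, quasi-likelihood, Benjamini-Hochberg over all genes tested) compared PPCA with vehicle over 6 libraries with harvest day as block, and gates and classes with library as block. DESeq2 1.42.0, limma 3.58.1, other scalings and filters, thinning of cells to 2000 UMIs and left-out libraries were the alternatives. The day 4 contrasts, the interactions of day 4 with gate and with treatment were added after the data were seen. Deviations from the arm means over genes correlated within every harvest day (0.334, 0.336 and 0.507 in CD4-gated and 0.355, 0.549 and 0.520 in CD8-gated cells for days 2, 3 and 4), so the day was kept as the pairing. A planned comparison of cell classes and 1 gene list are not reported here. Nr3c1 was left out of the promoter search by its chromosome, so that windows of 6 of the 7 members were searched.

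Named were the members; per list and comparison at most 4 called genes with the largest log2 fold change (2 where none was called); 3 genes of most similar profile per member; and sex-linked genes. Il7r, Per2, Arntl, Dbp, Arrdc4, Txnrd1 and single values set beside them were named after their values were seen. In simulated counts with 200 genes changed 2-fold, the day-blocked fit recovered 69.5% of them in CD4-gated and 73% in CD8-gated sums, with 26 and 21 false calls. These false calls were a larger share of all calls than the adjusted p threshold of 0.05 allows on average. The day 4 fits had the same 2 residual degrees of freedom and were not simulated.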

Additional observations from a re-analysis of the deposited data

Results flagged for a closer look

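A difference between groups passed a test of the difference itself for 1 member, in an interaction with the gate that was added after the data were seen. The day 4 difference of Txnip was smaller in CD8-gated than in CD4-gated cells, with an interaction of -0.50 on the log2 scale (edgeR adjusted p = 0.0372). The call was lost without the vehicle library of day 2 (-0.50, adjusted p = 0.144), the PPCA library of day 3 (-0.50, adjusted p = 0.108) or the vehicle library of day 4 (-0.33, adjusted p = 0.281).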

How the results depend on the processing

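Over all alternatives 946 of 1029 member values had the direction and side of the threshold of the reported fit, 24 lost a call, 33 gained one, 23 changed sign and 3 moved, the active against onset ratios of Fkbp5 (-0.099), Sgk1 (-0.11) and Txnip (-0.19) in CD8-gated cells with thinned cells; a cause was not tested for any of them. Only 2 residual degrees of freedom stood behind the day and treatment comparisons.

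For PPCA against vehicle in CD4-gated cells DESeq2 called 28 genes, a fit without the low-count filter 136 with 1 member, Fkbp5, and a Y-linked factor 84; leaving out a day gave 0 to 75, with 1 gene without day 3 and 75 without day 4. In CD8-gated cells the calls were 41 with DESeq2, 117 without the filter, 2 with limma-voom, 81 with the Y-linked factor, 2 without the top 5% of cells and 3 with thinned cells, and 0 to 276 with a day left out, the 276 without day 4. Per1 changed sign in CD4-gated cells to 0.16 with limma-voom, 0.36 with no replicate block, 0.25 without day 2, 0.081 without day 3, 0.0100 without the top 5% of cells and 0.056 with thinned cells, and in CD8-gated cells to -0.20 without day 4. Nr3c1 in CD4-gated cells became -0.0027 without day 2 and -0.029 with thinned cells. The gate by treatment interaction called 54 genes without the filter, 2 with thinned cells and 0 without any of the days, and Ddit4 there became 0.026 with thinned cells.

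With no replicate block, here no library block, calls were 1971 with 2 members for CD8 against CD4, 1981 with 2 members for Foxp3, and 5 with 0 members in each gate for Nr4a1 or Egr cells. In the 4 libraries without Y-linked transcripts 3 members passed for CD8 against CD4, 2283 genes for Foxp3, and 279 and 123 for Nr4a1 or Egr cells in CD4- and CD8-gated cells, with 1 member in the latter. Thinned cells gave 2483 genes for Foxp3 and 251 and 90 for Nr4a1 or Egr cells, with 1 member in CD8-gated cells. DESeq2 gave 259 and 181 for Nr4a1 or Egr cells, and 4 members passed in CD4-gated cells without the filter. With a library left out these counts ran from 284 (without active; 316 without onset) to 582 in CD4-gated and from 253 (without PPCA of day 3) to 374 in CD8-gated cells.

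Foxp3 cells had Per1 at -0.16 with thinned cells and -0.023 with no replicate block. Nr4a1 or Egr cells had, with thinned cells, Ddit4 at 0.0084 and Nr3c1 at 0.049 in CD4-gated and Fkbp5 at -0.14 in CD8-gated cells, and Nr3c1 at 0.017 without Y-linked libraries.

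Day 4 in CD4-gated cells called 2510 genes without the filter, 2771 with the Y-linked factor, 846 without PPCA of day 3 and 979 without PPCA of day 4. In CD8-gated cells it called 3339 with the Y-linked factor and 827 to 1272 in the left-out fits that lost the most (1237 between them); 5 members passed without the filter, 6 with the Y-linked factor and 6 without vehicle of day 4. Leaving TMM out shifted the CD4-gated day 4 values by -0.162 to -0.159 and the CD8-gated ones by -0.165 to -0.157, and Nr3c1 in CD8-gated cells became -0.037, and -0.013 without vehicle of day 4. Fkbp5 became -0.23 and -0.13 without PPCA of day 4. Day 4 by gate called 162 genes without the filter and 8 to 51 with a library left out, with 0 members at the lowest; Sgk1 ran from -0.0096 (without vehicle of day 4) to 0.20 and Fkbp5 from -0.35 to 0.17 (without PPCA of day 4). Day 4 by treatment called 35 and 15 genes with DESeq2, 113 and 144 without the filter and, in CD4-gated cells, 2 with thinned cells; Fkbp5 was the 1 member passing without the filter in each gate and with DESeq2 in CD4-gated cells, and Ddit4 in CD8-gated cells became 0.00016 without the filter.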
